A study of Homo sapiens with 6 samples.

Results

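MiRNAs whose sequences lie within Alu elements were followed in Hep3B cells by the probes for miR-566, miR-1254, miR-1268, miR-1273, miR-1285, miR-1303, miR-1304 and miR-1972. They were found by the number in the probe name, with star-strand (passenger) and precursor probes left out, which gave 8 probes of the 581 with values and of 386 guide-strand probes. They were chosen by name, but also from their differences between HDAC6 and Mock on these same arrays, which were known when the set was drawn up. These differences are therefore given as a description.

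Hep3B is a human hepatocellular carcinoma cell line, and HDAC6 is a histone deacetylase family member found largely in the cytoplasm, with tubulin among its substrates. Cells were transfected by lipofection with the empty plasmid pcDNA3.1 (Mock, 3 arrays) or with the plasmid carrying HDAC6 (HDAC6, 3 arrays), and the series title asks which miRNAs HDAC6 regulates in this cancer. Per the labels, RNA of 3 separate extractions per condition was mixed into 1 pool, so the 3 arrays of a group may be repeated hybridizations and their spread may be technical. Both groups went through transfection with plasmid DNA, and no untransfected cells are among these samples. HDAC6 mRNA is not among the values of these arrays.

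Alu elements are short retrotransposons found only in primates and the most numerous mobile elements of the human genome. They arose from the 7SL RNA gene, are transcribed by RNA polymerase III, and are also carried within the introns and untranslated regions of many genes transcribed by RNA polymerase II. Several miRNA annotations, these among them, fall inside Alu copies, where sequence similar to the miRNA recurs across the genome and the transcriptome. A hybridization probe for such a miRNA can in principle also bind other Alu-containing RNA, and the share of the signal that came from the mature miRNA was not tested here. The origin in Alu is itself background, and was not checked against an Alu sequence.

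The mature sequences in RefSeq (GRCh38.p14) are shown because miRNAs grouped by an origin in Alu need not share a seed, the bases 2 to 8 that select targets. The seed is in capitals, and 5 of the 8 probes had a RefSeq entry that matched by name.
miR-1972: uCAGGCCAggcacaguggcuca
miR-1268a (probe miR-1268): cGGGCGUGgugguggggg
miR-1303: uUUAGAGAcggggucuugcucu
miR-1285-3p (probe miR-1285): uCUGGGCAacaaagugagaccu
miR-1304-5p (probe miR-1304): uUUGAGGCuacagugagaugug

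The 5 sequences carry 5 different seeds. Among the 10 pairs they form, the longest identical runs were AGUGAGA, of 7 bases in miR-1285-3p and miR-1304-5p, and ACAGUG, of 6 bases in miR-1972 and miR-1304-5p. The other 8 pairs shared no more than 5 bases in a row. Both runs lie downstream of the seeds. Against 2343 other mature RefSeq sequences, miR-1972 shared a run of at least 9 bases with 11 (0.469%), and miR-1268a, miR-1303 and miR-1285-3p with 2 each. Sequences named with any of the 8 member numbers were left out of these 2343. Relatives under the same number were therefore not compared, for runs or for seeds. The seed of miR-1285-3p was also that of miR-3187-5p, miR-5189-5p and miR-6860, none of which had a probe with values, and the seeds of the other 4 were found at bases 2 to 8 of none of the 2343. By name, 62.5% of the members matched with chromosome 8 left out, and 48.2% of all guide-strand probes with every chromosome kept. A comparison of base composition with the rest of the array was therefore void.

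The 5 miRNAs map to 7 places outside the chromosome that was left out. MiR-1303 lies at chr5:154685827-154685848 on the plus strand, within the span of LARP1. One copy of miR-1285-3p lies at chr7:92204027-92204048 on the minus strand, within the span of KRIT1, and the other at chr2:70252933-70252954 on the minus strand, within no other annotated gene. MiR-1304-5p lies at chr11:93733724-93733745 on the minus strand, within the span of TAF1D. MiR-1972 has copies at chr16:15010329-15010350 on the minus strand, within PDXDC1, and at chr16:70030393-70030414 on the plus strand, within the related pseudogene PDXDC2P and its readthrough PDXDC2P-NPIPB14P. MiR-1268a lies at chr15:22225308-22225325 on the minus strand, within no other annotated gene. The table used gives whole gene spans, so exons and introns were not told apart. The strand of the spanning gene was not compared with that of the miRNA, so a span is not a host transcript.

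All 8 probes gave higher signals in HDAC6 than in Mock arrays, with log2 differences from 0.92 for miR-1972 to 1.92 for miR-566, or 1.89-fold to 3.78-fold. Values are normalized log2 signals, on which a difference of 1 is a doubling. In limma, fitted over all 581 probes with Benjamini-Hochberg adjustment and a threshold of 0.05, 8 of 8 were called higher and 0 lower. Of all 581 probes 21.3% were called higher and 24.4% lower, and since the members were chosen with this contrast known, nothing is read from their count. The lowest HDAC6 array lay above the highest Mock array for 8 of 8 members, as it did for 27.0% of all probes. The median difference was 1.52 for the 8 members, -0.21 for all guide-strand probes and -0.09 for all probes. Quantile normalization makes the distributions of the arrays alike, so every difference is relative to the other probes. In the deposited values they were close but not identical, with array medians of 7.51 to 7.58.

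**Figure D1:**
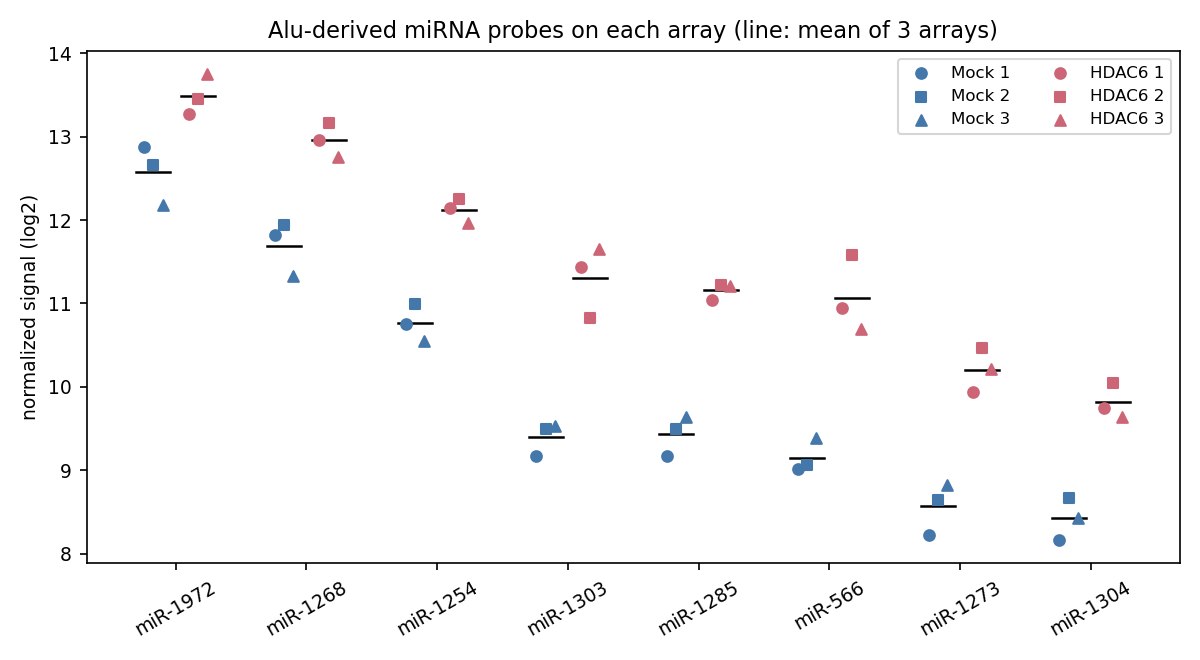
Normalized log2 signal (vertical axis) of the 8 Alu-derived miRNA probes on each of 3 Mock (blue) and 3 HDAC6 (red) arrays, with a line at the mean of each group. For every probe the 3 HDAC6 points lie above the 3 Mock points, by the narrowest margin for miR-1972 (0.39) and the widest for miR-1285 (1.41).

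MiR-566, which has been reported to repress the von Hippel-Lindau gene VHL, read 9.01, 9.06 and 9.38 on Mock arrays 1 to 3 and 10.95, 11.58 and 10.69 on HDAC6 arrays 1 to 3. The HDAC6 arrays were spread more widely than the Mock arrays, with HDAC6 2 highest, and the groups stood 1.31 apart at their nearest. The means were 9.15 ± 0.20 and 11.07 ± 0.46 (SD, n = 3), a difference of 1.92 (SE 0.268).

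MiR-1303, reported to repress the claudin gene CLDN18 in gastric cancer, read 9.17, 9.49 and 9.53 in Mock and 11.43, 10.82 and 11.66 in HDAC6. Here HDAC6 2 was the lowest HDAC6 array, the reverse of miR-566. The difference was 1.91 (SE 0.260), or 3.75-fold.

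MiR-1285 read 9.18, 9.50 and 9.64 in Mock and 11.05, 11.23 and 11.21 in HDAC6. Its HDAC6 arrays lay closest together of all members, with an SD of 0.098. The difference was 1.72 (SE 0.200), or 3.30-fold.

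MiR-1273 belongs to a family of which several annotations are Alu sequence. Its signals were 8.23, 8.64 and 8.83 in Mock and 9.94, 10.47 and 10.21 in HDAC6, a difference of 1.64 (SE 0.239) or 3.11-fold. Mock 1 was the lowest array, as it was for miR-566, miR-1303, miR-1285 and miR-1304.

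MiR-1304, reported to target genes of tooth enamel formation, read 8.17, 8.67 and 8.43 in Mock and 9.75, 10.05 and 9.64 in HDAC6. The difference was 1.39 (SE 0.217), or 2.62-fold. With a mean of 9.12 over the 6 arrays it was the dimmest member, and yet above the array medians of 7.51 to 7.58.

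MiR-1254, reported as a circulating marker of lung cancer, read 10.75, 10.99 and 10.55 in Mock and 12.14, 12.25 and 11.96 in HDAC6. The difference was 1.35 (SE 0.202), or 2.55-fold. Mock 3 was the lowest Mock array, and this was also so for miR-1268 and miR-1972.

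MiR-1268, reported to repress the drug transporter gene ABCC1, read 11.82, 11.94 and 11.33 in Mock and 12.96, 13.16 and 12.76 in HDAC6. The difference was 1.27 (SE 0.232), or 2.41-fold. Its signal ranked 14, 13 and 23 of 581 on Mock arrays 1 to 3 and 4, 4 and 6 on HDAC6 arrays 1 to 3, a rank of signal and not of amount, since probes differ in binding.

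MiR-1972 read 12.88, 12.66 and 12.18 in Mock and 13.27, 13.45 and 13.75 in HDAC6. It had the smallest difference of the members, 0.92 (SE 0.247), and the groups stood 0.39 apart at their nearest. Its signal rank was 6, 6 and 11 in Mock and 3 on each HDAC6 array. Since the ranks above are few, the size of a rise is bounded there by the normalized scale. Without HDAC6 3 its difference was 0.79 and it was no longer among the members called, which, like the count of calls, describes a difference the choice of members already used.

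The members thus fell into 2 patterns, a division made after the values were seen. MiR-1972, miR-1268 and miR-1254, the 3 with the highest signals, were lowest on Mock 3 among Mock arrays, and their mean was 11.81, 11.86 and 11.35 in Mock against 12.79, 12.95 and 12.82 in HDAC6. The other 5 were lowest on Mock 1, with means of 8.75, 9.07 and 9.16 in Mock against 10.62, 10.83 and 10.68 in HDAC6. The difference between groups was 1.18 for the 3 brighter and 1.72 for the 5 dimmer probes. These sizes may not be on equal terms. The brighter probes ranked 3 to 13 of 581 on the HDAC6 arrays, near the top of the normalized scale. Whether that limited their difference was not tested. Within an array, the brighter probes stood above the dimmer by 3.06, 2.79 and 2.19 in Mock and by 2.17, 2.13 and 2.14 in HDAC6. Mock 3 thus lay next to the HDAC6 arrays in this measure, 0.02 above the nearest. Averaged over the 8, the signal was 9.90, 10.12 and 9.98 in Mock and 11.44, 11.63 and 11.48 in HDAC6.

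**Figure D2:**
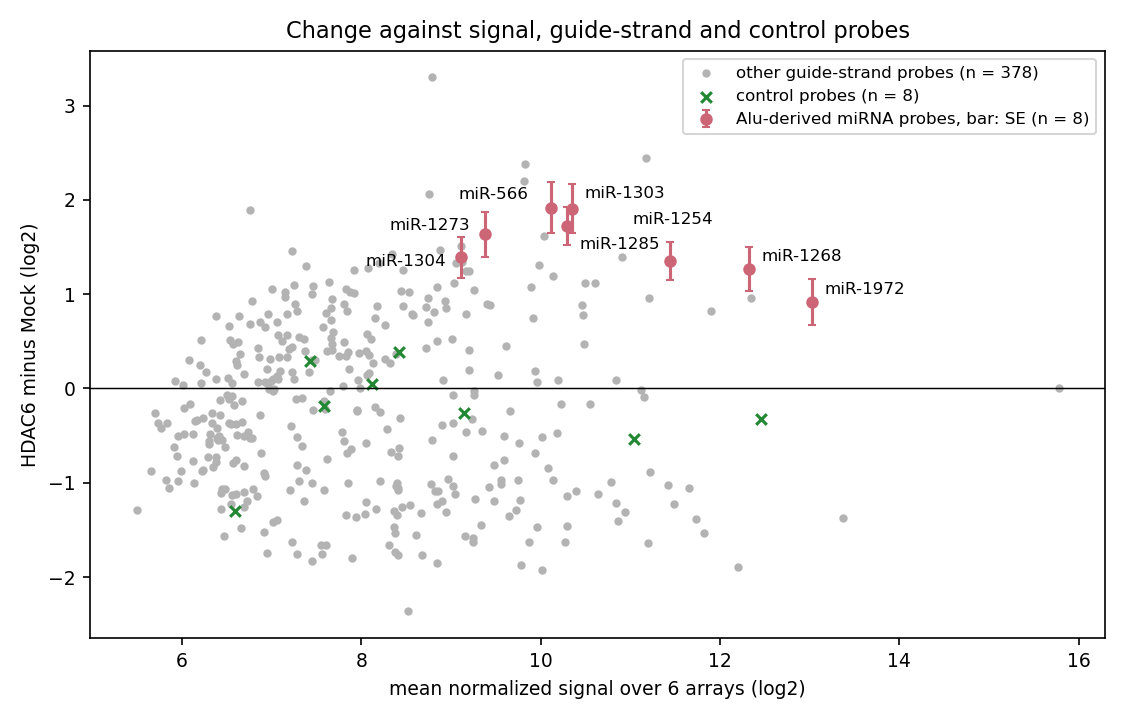
Difference between HDAC6 and Mock (log2, vertical axis) against the mean signal over 6 arrays (log2, horizontal axis) for 8 Alu-derived miRNA probes (red, bars SE), 378 other guide-strand probes (grey) and 8 control probes (green crosses). The red points run from 1.92 for miR-566 down to 0.92 for the brightest, miR-1972, while grey points of the same signal lie on both sides of 0. The top of the normalized signal scale was the same on every array (15.78).

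The members were also set beside guide-strand probes of similar signal and number. Outside the members, 26 guide-strand probes numbered from miR-566 to miR-1972 had a mean signal within the members' range of 9.12 to 13.03. Of these 13 were called higher and 2 lower, and their median difference was 0.85. At any signal there were 153 such probes, 50 called higher and 13 lower, with a median of 0.33. Higher calls were thus frequent among neighbours in number and signal too. Between the 3 arrays of a group the members had a median SD of 0.244 (Mock) and 0.227 (HDAC6), and all probes one of 0.294 and 0.242.

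The array also held probes for RNAs made by RNA polymerase III, the enzyme that transcribes Alu elements on their own: 5S rRNA, U6 and a tRNA. The 8 probes classed as controls are those not named as a miRNA. They include these and a row labelled "none", which was left out of the 7 used for centring below. The 8 had differences from -1.30 to 0.38, with no call in either direction (0 by limma, also at an unadjusted p under 0.05). The 5S-rRNA probe was at -0.26 (SE 0.255), the tRNA-M probe at -0.32 (SE 0.348), and the U6-296 and U6-337 probes at 0.38 (SE 0.351) and 0.05 (SE 0.281). The control probes had a median SD of 0.514 (Mock) and 0.420 (HDAC6), above the 0.244 and 0.227 of the members. A part of RNA polymerase III in the members' differences was not tested.

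A miRNA is cut from a hairpin, its precursor, and 1 member had a precursor probe as well. The miR-566 precursor read 13.10, 13.43 and 13.11 in Mock and 14.00, 14.22 and 14.03 in HDAC6, so the groups did not overlap. It was higher by 0.87 (SE 0.193), or 1.83-fold. Within an array the miR-566 probe stood at -4.09, -4.36 and -3.73 from its precursor in Mock and at -3.05, -2.64 and -3.34 in HDAC6. The precursor ranked 4, 3 and 4 of 581 in Mock and 2 on each HDAC6 array, next to the top of the normalized scale, so its difference is bounded by that scale and the gap of 1.05 between both differences is not a measure of unequal change. Binding of one form by the other's probe was not tested.

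The precursor of miR-619, another miRNA annotated in repeat sequence, read 10.17, 10.64 and 10.44 in Mock and 12.21, 12.18 and 12.33 in HDAC6. It was higher by 1.82 (SE 0.198), or 3.54-fold, within the range of the 8 mature members. Of all 104 precursor probes 30.8% were called higher, with a median difference of 0.18.

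**Figure D3:**
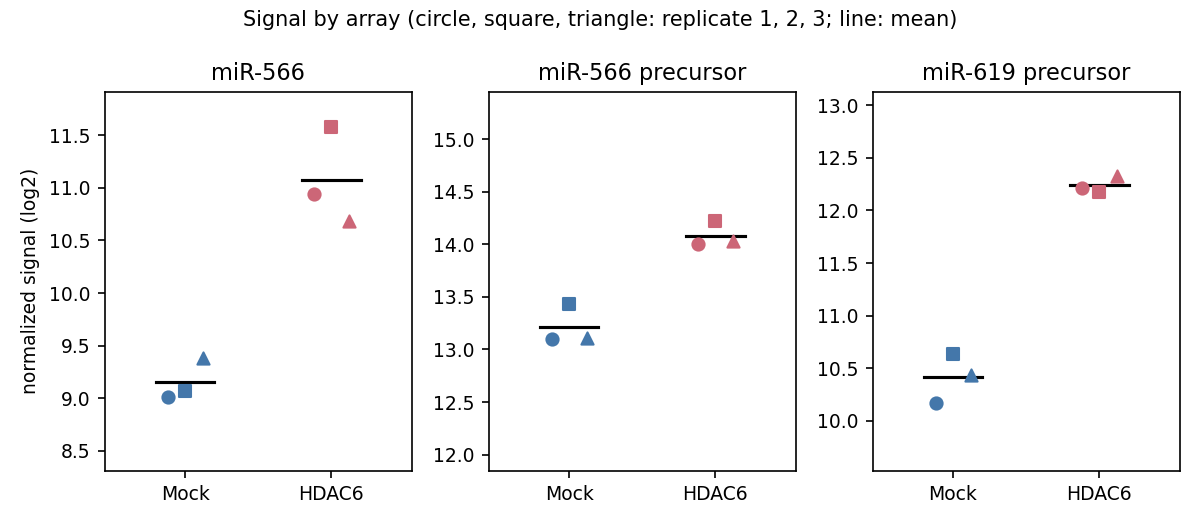
Normalized log2 signal (vertical axes, each spanning the same number of log2 units) of the miR-566, miR-566 precursor and miR-619 precursor probes in 3 Mock (blue) and 3 HDAC6 (red) arrays, with a line at each mean. All 3 probes were higher on every HDAC6 array, by 1.92, 0.87 and 1.82 on average.

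MiRNAs drawn from other transposons did not all lie on the same side. Of 22 guide-strand probes listed for such miRNAs, 7 were called higher and 5 lower, with a median difference of 0.23, against 21.3% higher and 24.4% lower over all probes. These probes were dimmer than the members, with a median signal of 7.17 (6.26 to 9.48) against 10.32, so they are not matched to the members by signal. Of 12 MADE1-derived probes (the miR-548 family and miR-603) 5 were called higher and 0 lower, with a median of 0.55. Of 7 probes from LINE-2, an old retrotransposon, 1 was called higher and 4 lower, with a median of -0.71. The 3 LINE-1 probes were split, with 1 higher, 1 lower and 1 not called. The extremes of the list were miR-571 at 1.89 (SE 0.258) and miR-548c-3p at 1.45 (SE 0.281), and miR-28-5p at -1.20 (SE 0.209) and miR-625 at -1.20 (SE 0.230).

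The guide-strand probes outside the members whose profile was most like the members' mean were miR-1203 (r = 0.994), miR-125a-3p (0.993), miR-574-5p (0.993), miR-575 (0.992) and miR-302e (0.991), by Pearson's r over the 6 arrays. Taken over both groups together, this measure picks probes with a like step from Mock to HDAC6. Their differences ran from 1.08 for miR-575 to 3.30 for miR-302e.

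As a check of the cell type, the liver-enriched miR-192 and miR-194 read 13.15 and 12.02 in Mock on average and 11.26 and 10.38 in HDAC6. MiR-21 read 11.45 in Mock and 10.23 in HDAC6, and miR-122, the main hepatocyte miRNA, read 7.42 and 7.82, near the array medians. The first 3 were called lower in HDAC6 (limma, adjusted p = 0.00953, 0.0137 and 0.0113), opposite to the members, and their part in the members' differences was not tested. Of the markers of blood cells miR-150 was at 7.66 in Mock and 7.63 in HDAC6. The other markers listed for blood, endothelium and muscle had 0 guide-strand probes with values.

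**Figure D4:**
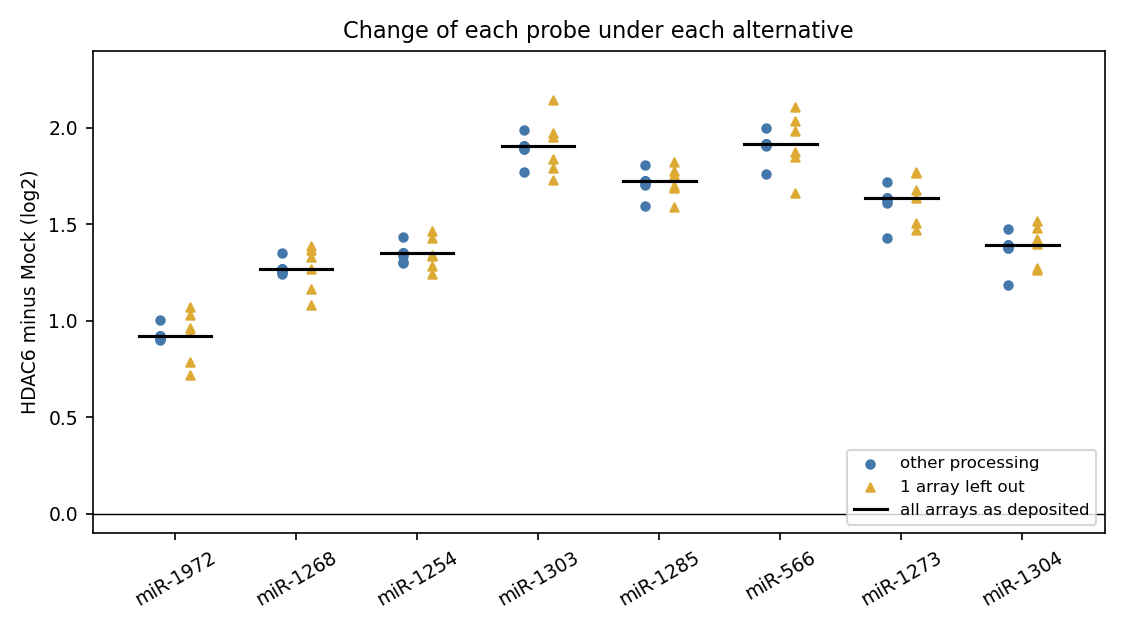
Difference between HDAC6 and Mock (log2, vertical axis) for each of the 8 members under other processing (blue circles) and with 1 array left out (yellow triangles), with a line at the value from all arrays as deposited. Every point lies above 0, and the lowest, 0.72, is that of miR-1972. Some of the other processing leaves a difference unchanged by construction.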

How the data were processed

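Total RNA was biotin-labelled and hybridized to a GenoExplorer microRNA chip. Per the labels and the series' design text, the authors scanned on an Axon scanner, read the spots with GenePix Pro 5.0, removed spots judged poor by eye, averaged 3 spots per probe, and applied quantile normalization and class-specific filtering in GenePlex 3.0. How background was corrected and by which rule values were filtered is not stated in the labels. The deposited values were read as log2 signals from their range (3.52 to 15.78). Signal over background is not known, and precision is limited by there being 3 arrays a group. One blank row was left out, and no 2 arrays of a group shared more than 2 equal values.

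Groups were taken from sample titles. Limma 3.58.1 (R 4.3.3) was fitted to all 581 probes without covariates, two-sided, and was tested on simulated data. All members were named, with the 2 extremes on each side of the transposon list and the 5 most similar profiles. The members and lists were chosen with earlier results of these data known. Sequences came from RefSeq.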

Additional observations from a re-analysis of the deposited data

How the results depend on the processing

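Under 8 other ways of processing (median centring, repeated quantile normalization, centring on 7 small RNA control probes, an added offset of 93.8 linear units, the 291 brighter probes, robust priors with an intensity trend, the replicate block, guide-strand probes alone), 8 of 8 members were called higher, and the median difference ran from 1.37 to 1.60. Of all probes fitted, 13.9% (centring on control probes) to 32.0% (brighter probes alone) were called higher under these. With 1 array left out, 7 to 8 members were called, beside 14.8% to 20.3% of all probes. The members' median then ran from 1.40 to 1.60. The exception was miR-1972 without HDAC6 3. No member changed direction under any of the 14 alternatives. Restricting to brighter or guide-strand probes, changing the priors or adding the replicate block leaves each member's difference as it was. Direction and median could therefore not change in those fits. Median centring and centring on control probes each move every probe's difference by the same amount. The members' median thus stayed 1.60 above that of all probes by construction. The members were also chosen with this contrast known, so their direction is a description. Repeated quantile normalization moved the median of all probes by 0.16, so that the members' median stood 1.42 above it, against 1.60 as deposited. Centring on control probes reduced higher calls over all probes from 124 to 81. Lower calls, 24.4% of all probes as deposited, numbered 85 with that centring and 93 without HDAC6 1. Deviations of same-numbered Mock and HDAC6 arrays correlated at 0.16, -0.086 and 0.192, and those of differently numbered arrays at -0.292 to 0.191. Whether the replicate numbers pair the arrays is not settled by these values. With the replicate block 8 members and 20.65% of all probes were called higher. The members' median was 1.52 there, unchanged by construction.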
